A study of Saccharomyces cerevisiae with 35 samples.

Results

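The transcripts of 44 genes for heat shock proteins and molecular chaperones were followed in yeast colonies that carried an extra chromosome, an altered dose of the repressor gene *DIG1*, or a deletion of a cell wall gene. The 44 genes were chosen by name, as the HSP genes, the Hsp70 and Hsp90 families with their partners, the mitochondrial and endoplasmic reticulum (ER) chaperones, and the regulator gene *HSF1*, a rule that uses no measured value. All 44 were found among the 12131 features counted, of which 6575 are nuclear ORFs, and all 44 passed the filter on low counts in both batches. The question was whether the disomes, which carry an extra copy of every gene of 1 chromosome, show the transcript changes of a proteotoxic response.

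The study sequenced poly(A) RNA from whole colonies of strains in the haploid F45 background after 4 d on rich medium with 2% glucose, in 35 libraries, each a separate pool of colonies. In the first batch, 4 libraries each came from a strain disomic for chromosome XV, one disomic for chromosome XVI, a chromosome XVI disome hemizygous for *DIG1* (*dig1Δ*::*kanMX4*/*DIG1*), F45 with a low copy *DIG1* plasmid, F45 with the empty plasmid pRS41K, and F45 itself. In the second, 4 libraries each came from *flo11*Δ and *cis3*Δ strains (each *kanMX4* replacements, from a pair of isolates per gene) and 3 from F45. All strains, the controls included, are *MAT***a** with *ho*Δ0::*hphMX6* and *SPS2*:EGFP:*natMX4* and have an unmapped serine auxotrophy. Each disome is a single isolate whose copies of the doubled chromosome are homozygous, so a difference from F45 cannot be told apart from any other mutation of that isolate. F45 forms fluffy colonies and both disomes form smooth ones, so karyotype and colony form also cannot be told apart. By the paper, colonies with the *DIG1* plasmid are smooth, and those of the hemizygous strain are fluffy only at the edge. Dose of *DIG1* and colony form thus changed together. Because RNA was pooled over a whole colony, fewer cells of a type and less RNA per cell cannot be told apart either. The paper lists the *DIG1* plasmid as pAB340 and the control as pRS41K. Extra *DIG1* and a difference of vector therefore cannot be told apart between these strains.

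Chaperones bind newly made or unfolded proteins, keep them from aggregating, and pass them on for folding or degradation. In budding yeast, unfolded protein in the cytosol activates the transcription factor Hsf1, which binds heat shock elements upstream of genes for Hsp70, Hsp90 and their partners, while Msn2 and Msn4 act on stress response elements upstream of many genes of the general stress response, such as *HSP12* and *HSP26*. The unfolded protein response of the ER acts on genes such as *KAR2*. A rise of these genes together is the usual transcript sign of proteotoxic stress.

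The upstream sequences of the members were read from the R64 reference, whose coordinates match those of the count files for all 44. They show which members carry an exact match to a written form of these elements. A heat shock element was searched as GAA, any 2 bases, TTC, any 2 bases and GAA, and a stress response element as AGGGG, on both strands, in the 500 bases before the start codon, with overlapping copies counted separately. The heat shock element was found upstream of 14 of the 44 members (31.8%) and of 89 of 6000 nuclear protein-coding genes (1.48%). The stress response element was found upstream of 19 members (43.2%) and of 34.1% of all genes. The pheromone response element TGAAACA, bound by Ste12, which Dig1 represses, was found upstream of 1 member, *HSP78* (2.27%), and of 12% of all genes. Capitals mark the heat shock element in the first set, which is shown for members of the small heat shock protein, Hsp70, disaggregase and sorting groups, for mitochondrial *HSP78* and for *KAR2*, since the results differ among them.
*SIS1* at chrXIV:619873-619913, minus strand: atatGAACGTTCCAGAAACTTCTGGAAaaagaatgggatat
*HSP42* at chrIV:806369-806409, plus strand: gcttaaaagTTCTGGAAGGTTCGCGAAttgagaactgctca
*HSP104* at chrXII:88312-88352, plus strand: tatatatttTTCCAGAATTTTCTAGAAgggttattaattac
*BTN2* at chrVII:772101-772141, plus strand: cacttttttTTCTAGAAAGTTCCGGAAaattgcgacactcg
*SSA1* at chrI:141666-141706, minus strand: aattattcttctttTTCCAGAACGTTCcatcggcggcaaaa
*SSA2* at chrXII:97692-97732, minus strand: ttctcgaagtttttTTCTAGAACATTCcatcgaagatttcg
*HSP78* at chrIV:974459-974499, minus strand: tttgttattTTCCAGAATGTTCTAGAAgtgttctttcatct
*KAR2* at chrX:381113-381153, plus strand: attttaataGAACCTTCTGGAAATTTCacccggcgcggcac

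In the second set, capitals mark the stress response element. It is shown for the members with this element that were lower by more than 2-fold in a disome, among which *HSP32*, *HSP33* and *SNO4* have nearly the same upstream sequence, like their coding sequences. A match is a description of these letters and not proof of binding, and F45 is not the reference strain. Only these exact patterns were searched, so a member without a match may still carry a variant of the element.
*HSP26* at chrII:381690-381722, plus strand: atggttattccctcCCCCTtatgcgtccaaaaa
*SSE2* at chrII:576204-576236, minus strand: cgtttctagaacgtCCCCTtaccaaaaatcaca
*SSA4* at chrV:364396-364428, plus strand: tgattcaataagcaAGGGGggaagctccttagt
*MDJ1* at chrVI:106563-106595, minus strand: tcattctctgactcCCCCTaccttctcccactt
*HSP31* at chrIV:1502364-1502396, minus strand: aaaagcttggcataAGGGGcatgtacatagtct
*HSP32* at chrXVI:11723-11755, plus strand: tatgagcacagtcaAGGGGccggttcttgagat
*HSP33* at chrXV:1079390-1079422, minus strand: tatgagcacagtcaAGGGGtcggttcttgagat
*SNO4* at chrXIII:919211-919243, minus strand: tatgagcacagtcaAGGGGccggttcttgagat

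Total counts per library ranged from 6503076 to 37823857. Levels are in CPM, the counts of a gene relative to the scaled nuclear ORF counts of its library, and are given without copy number adjustment. In the first batch only ORFs outside chromosomes XV and XVI enter these ORF counts, so a sum of CPM is not a share of all ORF counts. Log2 fold changes are per gene copy, so that genes of a chromosome present in 2 copies had their counts divided by 2. This touches *HSP33*, *STI1* and *HSP10* on chromosome XV and *HSP32*, *CUR1*, *SSE1* and *HSP82* on chromosome XVI. The paper reports median rises over F45 somewhat below a doubling for genes of both chromosomes. A small fall per copy may therefore not set such a member apart from other genes of its chromosome. Calls rest on the quasi-likelihood test of edgeR with Benjamini-Hochberg adjustment, at a threshold of 0.01 on the adjusted p. The targeted genes matched the labels. *DIG1* was at 125–149 CPM in the chromosome XVI disome, 54.7–65.3 CPM in the hemizygous strain and 291–317 CPM with the *DIG1* plasmid, against 63.5–72 CPM in F45. *CIS3* was at 0.173–0.355 CPM in *cis3*Δ colonies, against 737–831 CPM in F45, and *FLO11* at 3.55–6.36 CPM in *flo11*Δ colonies, against 18286–20368 CPM in F45.

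In F45 of the first batch, the member with the most counts per kilobase was *HSP12*, a small membrane-associated protein of the general stress response, at 23043 ± 1203 CPM per kb (SD, n = 4). *HSP30*, a plasma membrane protein that negatively regulates the proton pump Pma1, was at 22489.5 ± 1533 CPM per kb, and *HSP26*, an aggregate-binding small heat shock protein, at 5550.4 ± 184. The first 2 did not differ beyond their spread. At the other end stood *HSF1* at 23.2 ± 1.08, *ECM10*, a minor mitochondrial Hsp70, at 17.8 ± 0.84, and *SNO4* at 17.3 ± 1.96 CPM per kb. *HSP30* alone made up 17.6–25.3% of the members' summed CPM in the chromosome XV disome, 39.4–45.3% in the chromosome XVI disome and 34.6–38.2% in F45.

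Neither disome showed a rise of the chaperone genes as a group. In the chromosome XV disome, 3 of the 44 members rose and 24 fell, against a background of 28% of tested nuclear ORFs higher and 29.4% lower. In the chromosome XVI disome, 5 members rose and 26 fell, against 26.7% of ORFs higher and 25% lower. The median log2 fold change of the members was −0.30 and −0.32 in the chromosome XV and XVI disomes, while that of all tested ORFs was −0.01 and 0.02. Estimates lay below 0 for 34 members in the chromosome XV disome and 31 in the chromosome XVI disome, and for 50.9% and 48.2% of ORFs. No member rose by more than 2-fold in either disome, where 2.46% and 1.1% of ORFs did so. Lower by more than 2-fold were 8 members in the chromosome XV disome and 8 in the chromosome XVI disome, where the share of ORFs was 5.82% and 5.66%. In both, these include *HSP32*, *HSP33* and *SNO4*, nearly identical genes that may share reads and so may not be separate observations. Both comparisons share the same 4 F45 libraries, so their likeness is not independent evidence.

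**Figure D1:**
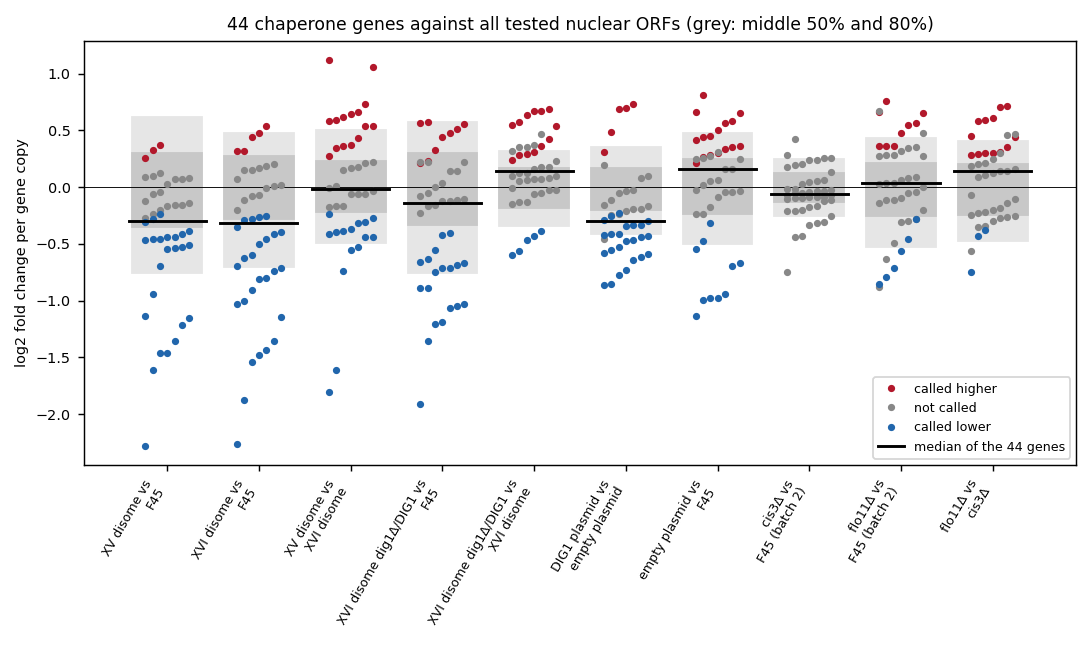
Log2 fold change per gene copy (y axis) of the 44 chaperone genes in each of the 10 comparisons (x axis). Points are genes, coloured by whether they were called at an adjusted p under 0.01, the black line is their median, and the grey boxes span the middle 50% and 80% of all tested nuclear ORFs. The members' median lies at −0.30 and −0.32 in the 2 disomes against F45 and at −0.30 for the *DIG1* plasmid against the empty plasmid.

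Other lists moved with the members, and their part in the result was not tested. Of 132 ribosomal protein genes, 128 rose in the chromosome XV disome (median log2 fold change 0.86) and 106 in the chromosome XVI disome (0.37). All 4 **a** cell markers (*MFA1*, *MFA2*, *STE2* and *BAR1*) fell in both disomes. The α-factor genes *MF(ALPHA)1* and *MF(ALPHA)2* stayed below 3 CPM in every library of these 3 groups, and the α cell gene *STE3* was at 8.71–11.8 CPM in the chromosome XV disome, 23.7–26.5 CPM in the chromosome XVI disome and 27.3–30.4 CPM in F45. Without *HSP30*, the members summed to 31218 ± 2001 CPM in the chromosome XV disome and 33848 ± 1170.1 CPM in the chromosome XVI disome, against 38844 ± 1066 CPM in F45 (SD, n = 4 each).

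Among the small heat shock proteins and *HSP30*, *HSP26* and *HSP30* separated the disomes from each other. *HSP26* (YBR072W) was at 1210.5, 1119.8, 1223 and 1128 CPM in the chromosome XV disome and at 4089, 4481, 3926 and 3814 CPM in the chromosome XVI disome, against 3415, 3695, 3627 and 3583 CPM in F45. All libraries of the chromosome XV disome lay below all others, 3.06-fold lower than F45 (log2 fold change ± SE −1.61 ± 0.0791, adjusted p = 7.23e-16), and *HSP26* was not called in the chromosome XVI disome (0.19 ± 0.077, adjusted p = 0.0393). *HSP30* (YCR021C) was at 9428, 10303, 6518 and 6359 CPM in the chromosome XV disome and at 29048, 22400.5, 25029 and 23188 CPM in the chromosome XVI disome, against 20823, 24528, 22266 and 22250.3 CPM in F45. It fell in the chromosome XV disome, without overlap (−1.46 ± 0.122, adjusted p = 4.6e-11) and overlapped with F45 in the chromosome XVI disome (0.15 ± 0.119, adjusted p = 0.293). *HSP42* (YDR171W), which gathers misfolded proteins in cytosolic deposits, fell in both (−0.53 and −0.70). It was not called between the disomes. *HSP12* (YFL014W) was called lower in the chromosome XVI disome only (−0.41 ± 0.0802, adjusted p = 8.28e-05), with −0.24 ± 0.0801, adjusted p = 0.0121 in the chromosome XV disome, and the difference between the disomes was not called (0.18 ± 0.0801, adjusted p = 0.0698).

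The 4 genes of the *HSP31* family fell in both disomes. *HSP31* (YDR533C) encodes a methylglyoxal-detoxifying chaperone related to human DJ-1, and *HSP32* (YPL280W), *HSP33* (YOR391C) and *SNO4* (YMR322C) are its subtelomeric paralogs. *HSP31*, which shares no stretch of read length with another locus, was at 354, 325, 282 and 294 CPM in the chromosome XV disome and at 187, 209.5, 174 and 185 CPM in the chromosome XVI disome, against 434, 443, 400.0 and 393 CPM in F45. The groups did not overlap, and the fall was larger in the chromosome XVI disome (−1.14 ± 0.0768, adjusted p = 8.36e-13) than in the chromosome XV disome (−0.41 ± 0.0758, adjusted p = 3.09e-05), a difference that was itself called (0.73 ± 0.0766, adjusted p = 7.54e-09).

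*HSP32*, *HSP33* and *SNO4* are 98.9% to 99.4% identical over their coding bases, and all of *HSP32*, 76.1% of *HSP33* and 77.1% of *SNO4*, taken in windows of 51 bases, the read length of the first batch, also occurs elsewhere in the reference. Reads were not filtered on mapping quality, so counts may be split among them at random, and the copy number adjustment of *HSP32* and *HSP33* is then uncertain. Their sum, without adjustment, was 49.7, 42.4, 34.4 and 26.5 CPM in the chromosome XV disome and 33.4, 37.3, 31 and 26.9 CPM in the chromosome XVI disome, against 90.2, 89.8, 79.4 and 85.4 CPM in F45. Every disome library lay below every F45 library. Singly and per copy, *HSP33* had log2 fold changes of −2.28 ± 0.136, adjusted p = 5.51e-14 in the chromosome XV disome and −1.54 ± 0.134, adjusted p = 1.85e-10 in the chromosome XVI disome, and *HSP32* had −1.14 ± 0.12, adjusted p = 4.4e-09 and −2.26 ± 0.117, adjusted p = 2.83e-15. *HSP33* was at 25, 20, 15 and 12 CPM in the chromosome XV disome and 14.5, 16.9, 13.7 and 11 CPM in the chromosome XVI disome, against 44.5, 43.7, 38.1 and 39.8 CPM in F45. *HSP32* was at 18.9, 16.9, 14.9 and 10.4 CPM in the chromosome XV disome and 13.8, 15.1, 12.5 and 12.1 CPM in the chromosome XVI disome, against 32.8, 32.4, 30.9 and 33.1 CPM in F45. *SNO4*, on neither chromosome, was at 5.81, 5.5, 4.47 and 4.14 CPM in the chromosome XV disome and 5.09, 5.28, 4.79 and 3.73 CPM in the chromosome XVI disome, against 12.9, 13.7, 10.4 and 12.5 CPM in F45, with log2 fold changes of −1.35 ± 0.147, adjusted p = 6.84e-09 and −1.35 ± 0.139, adjusted p = 4.61e-09.

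*HSP104* (YLL026W), the disaggregase that pulls proteins out of aggregates, did not rise in either disome. It was at 1662, 1434, 1381 and 1246 CPM in the chromosome XV disome and at 2033, 1993, 1918 and 1792 CPM in the chromosome XVI disome, against 2029.6, 1979, 1970.3 and 1790.0 CPM in F45. It fell in the chromosome XV disome (−0.44 ± 0.0869, adjusted p = 7.89e-05) and was not called in the chromosome XVI disome (−0.01 ± 0.0867, adjusted p = 0.96). The sorting factors *BTN2* (YGR142W) and *CUR1* (YPR158W), which direct misfolded proteins to their deposit sites, both fell in the chromosome XV disome (−0.53 and −0.38). *CUR1* had 51.9, 51.7, 42.6 and 38.5 CPM in the chromosome XVI disome, against 63.2, 56.9, 66.7 and 65.1 CPM in F45. With its chromosome doubled, *CUR1* thus had 0.733-fold the F45 level without adjustment and −1.44 ± 0.119, adjusted p = 7.15e-11 per copy.

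Of the 4 cytosolic Hsp70 genes, 3 fell in the chromosome XV disome and all 4 in the chromosome XVI disome. *SSA4* (YER103W), the stress-induced Hsp70 whose transcript is among the most inducible by heat, was at 1015, 752, 682 and 554 CPM in the chromosome XV disome and at 528, 492, 454 and 418 CPM in the chromosome XVI disome, against 1839, 1804, 1695 and 1605 CPM in F45. No disome library reached F45, and the fall was 2.31-fold in the chromosome XV disome (−1.21 ± 0.146, adjusted p = 4.61e-08) and 3.67-fold in the chromosome XVI disome (−1.88 ± 0.149, adjusted p = 2.81e-11). *SSA3* (YBL075C), also stress-induced, fell by just under 2-fold in the chromosome XVI disome (adjusted p = 3.17e-10), and by less in the chromosome XV disome (−0.46). The major Hsp70 genes *SSA1* (YAL005C) and *SSA2* (YLL024C) are 96.8% identical, and 57.6% and 57.9% of their windows occur elsewhere, so their split is uncertain. *SSA1* fell in both disomes (−0.45 and −0.80) and *SSA2* in the chromosome XVI disome (−0.71), with −0.06 ± 0.105, adjusted p = 0.619 in the chromosome XV disome. Between the disomes, all 4 genes were higher in the chromosome XV disome, by 0.35 to 0.66 on the log2 scale.

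Among the partners of Hsp70, *SSE2* fell most in both disomes, and *SIS1* was next in the chromosome XVI disome. *SSE2* (YBR169C), the stress-induced nucleotide exchange factor, was at 86.2, 74.3, 63 and 65.3 CPM in the chromosome XV disome and at 77.7, 65.4, 72.6 and 67.8 CPM in the chromosome XVI disome, against 189, 222, 183 and 195 CPM in F45. The disome libraries lay below all F45 libraries and overlapped each other (−1.46 ± 0.0879, adjusted p = 6.48e-14 and −1.47 ± 0.0867, adjusted p = 4.79e-14). *SIS1* (YNL007C), an essential J-domain protein and Hsf1 target, was at 364, 274, 261 and 248 CPM in the chromosome XV disome and at 218, 201, 177 and 163 CPM in the chromosome XVI disome, against 402, 395, 379 and 378 CPM in F45. It fell in both, without overlap (−0.44, adjusted p = 0.00333, and −1.03 ± 0.126, adjusted p = 9.36e-08). The exchange factors *SSE1* (YPL106C; −0.45 and −0.40) and *FES1* (YBR101C; −0.51 and −0.45) fell in both disomes, although the doubled *SSE1* of the chromosome XVI disome gave 1.52-fold the F45 level without adjustment. *YDJ1* (YNL064C), the main cytosolic J-domain protein, fell in the chromosome XVI disome (−0.74 ± 0.0983, adjusted p = 3.82e-07) and had −0.15 ± 0.0977, adjusted p = 0.176 in the chromosome XV disome, a difference that was itself called (0.58). *APJ1* (YNL077W), a further J-domain protein, was not called in either (−0.16 and 0.02).

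**Figure D2:**
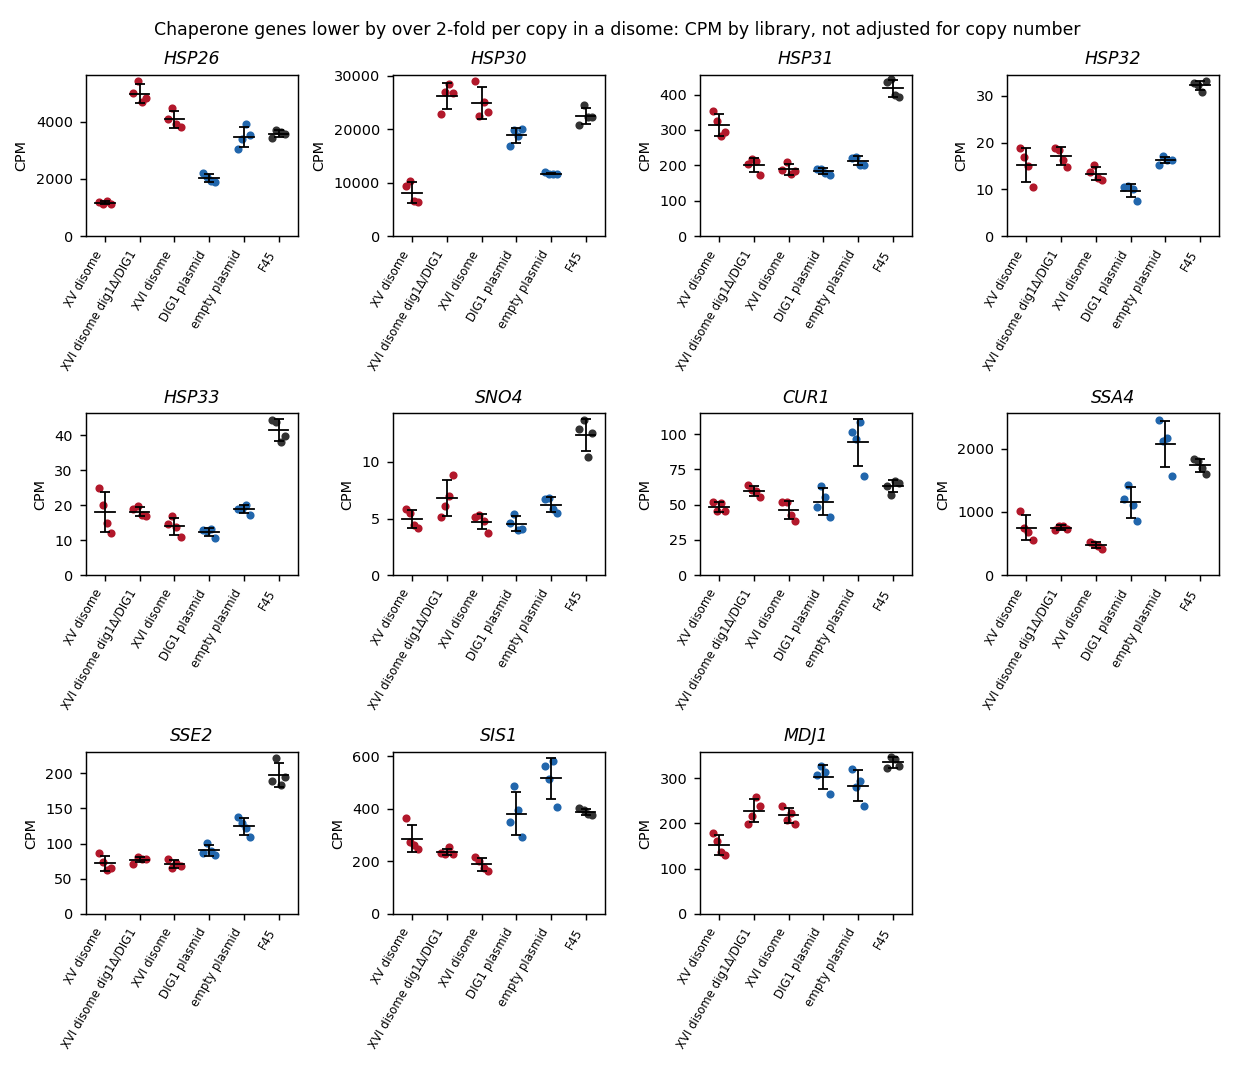
CPM (y axis, linear, from 0, without copy number adjustment) in the 6 groups of the first batch (x axis) for the members that were lower by over 2-fold per copy in a disome. Points are single libraries, the line is the mean and the bar the SD (n = 4). *SSA4* and *SSE2* lie below F45 in every disome library, whereas *HSP26* and *HSP30* are low in the chromosome XV disome and not in the chromosome XVI disome.

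The chaperones of the ribosome went the other way. *SSB1* (YDL229W) and *SSB2* (YNL209W) encode the Hsp70 that receives nascent chains, and *ZUO1* (YGR285C) and *SSZ1* (YHR064C) encode the complex that recruits it. All 4 rose in the chromosome XVI disome, by 0.32 to 0.53 on the log2 scale, and *ZUO1* alone rose in the chromosome XV disome. *ZUO1* was at 369, 388, 408 and 459.5 CPM in the chromosome XV disome and at 445, 448, 456 and 479 CPM in the chromosome XVI disome, against 314, 305, 319 and 323 CPM in F45. It had the largest rise of the members in both (0.37 ± 0.0618, adjusted p = 9.99e-06 and 0.53 ± 0.0617, adjusted p = 3.5e-08). *SSB1*, *SSB2* and *SSZ1* had 0.08, 0.13 and −0.04 in the chromosome XV disome and were not called there, and all 3 were lower in it than in the chromosome XVI disome (−0.40, −0.31 and −0.36). *SSB1* and *SSB2* are 97.6% identical, with 42.7% of their windows shared, so their split is uncertain.

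The Hsp90 genes moved differently. The constitutive *HSC82* (YMR186W) was at 732, 641, 773 and 778 CPM in the chromosome XV disome and at 480.4, 527, 451 and 451 CPM in the chromosome XVI disome, against 639, 582, 578 and 529 CPM in F45. It rose in the chromosome XV disome (0.33 ± 0.0827, adjusted p = 0.00112) and fell in the chromosome XVI disome (−0.29 ± 0.0828, adjusted p = 0.00441). Neither disome overlapped with F45, but the nearest libraries lay at 641 against 639 CPM and 527 against 529 CPM, respectively. The rise lost its call with scaling factors applied to total counts. The heat-induced *HSP82* (YPL240C), which lies on chromosome XVI, was at 1313, 1251, 1137 and 1123 CPM in the chromosome XVI disome, against 1104, 1059, 1069 and 993 CPM in F45. This is 1.14-fold without adjustment and −0.81 ± 0.0996, adjusted p = 1.04e-07 per copy. Of 6 Hsp90 cochaperones, *SBA1* (YKL117W, the p23 homolog) rose in both disomes (0.26 and 0.32) and *AHA1* (YDR214W), an activator of the Hsp90 ATPase, fell in both (−0.69 and −0.90). *AHA1* was at 125–158 CPM in the chromosome XV disome and 104–127 CPM in the chromosome XVI disome, against 200.4–236 CPM in F45. *STI1* (YOR027W), which links Hsp70 to Hsp90, was called lower per copy in the chromosome XV disome (−0.24 ± 0.0772, adjusted p = 0.00954), where its chromosome is doubled and its unadjusted level was 1.7-fold that of F45. This call was kept in 8 of 19 alternatives, and was lost without any 1 of the F45 libraries. *HCH1* (YNL281W) and the cyclophilin *CPR6* (YLR216C) fell in the chromosome XVI disome (−0.27 and −0.28), and the kinase cochaperone *CDC37* (YDR168W) was called in neither (0.03 and 0.20).

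Among mitochondrial chaperones, 5 of 6 members fell in the chromosome XV disome and 4 of 6 in the chromosome XVI disome. *MDJ1* (YFL016C), the J-domain partner of mitochondrial Hsp70, was at 178, 161, 138 and 130.1 CPM in the chromosome XV disome and at 239, 209, 224 and 199.9 CPM in the chromosome XVI disome, against 323, 347, 342 and 328 CPM in F45. The 3 groups did not overlap, with log2 fold changes of −1.15 ± 0.0963, adjusted p = 5.43e-11 in the chromosome XV disome and −0.62 ± 0.0944, adjusted p = 3.06e-06 in the chromosome XVI disome. *HSP78* (YDR258C), the mitochondrial disaggregase, fell in both (−0.94 and −0.50), as did *ECM10* (YEL030W; −0.28 and −0.25). The chaperonin *HSP60* (YLR259C) and its partner *HSP10* (YOR020C) fell in the chromosome XV disome (−0.54 and −0.31) and were not called in the chromosome XVI disome (0.01 and −0.07). The Hsp70 *SSC1* (YJR045C) had −0.13 in the chromosome XV disome and fell in the chromosome XVI disome (−0.35), and the difference between the disomes was not called (0.22 ± 0.074, adjusted p = 0.0145). *HSP10* lies on the doubled chromosome XV, and its unadjusted level was 1.62-fold that of F45 there.

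No ER member rose in either disome. *KAR2* (YJL034W), the ER Hsp70, was not called in either disome (0.07 ± 0.0716, adjusted p = 0.393 in the chromosome XV disome and −0.08 ± 0.0715, adjusted p = 0.35 in the chromosome XVI disome), nor were its partner *LHS1* (YKL073W; −0.14 and 0.17) and *PDI1* (YCL043C), the disulfide isomerase (0.07 and −0.20). *ERO1* (YML130C), the oxidase that recharges *PDI1*, fell in the chromosome XVI disome (−0.60 ± 0.112, adjusted p = 5.16e-05). *PDI1* overlaps another ORF on its own strand over 5.67% of its length, and no other member does so.

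*HSF1* (YGL073W) was at 53, 54.3, 48.8 and 47.2 CPM in the chromosome XV disome and at 63.1, 58.3, 63.7 and 59 CPM in the chromosome XVI disome, against 59.3, 60.7, 57.9 and 54.4 CPM in F45, and was called in neither (−0.20 ± 0.0701, adjusted p = 0.0141 and 0.07 ± 0.0679, adjusted p = 0.377). A list of 18 members that depend on Hsf1 in unstressed cells held 1 that rose and 11 that fell in the chromosome XV disome (median −0.41), and 0 that rose and 14 that fell in the chromosome XVI disome (−0.56). Of the 14 members with a heat shock element as written above, 12 fell in the chromosome XV disome and 8 in the chromosome XVI disome, and none rose. Of the 30 members without one, 12 fell and 3 rose in the chromosome XV disome, and 18 fell and 5 rose in the chromosome XVI disome. Of the 19 with a stress response element, 13 fell and 1 rose in the chromosome XV disome, and 14 fell and 1 rose in the chromosome XVI disome. Of the 25 without it, 11 fell and 2 rose in the chromosome XV disome, and 12 fell and 4 rose in the chromosome XVI disome. Of all ORFs, 29.4% fell and 28% rose in the chromosome XV disome, and 25% fell and 26.7% rose in the chromosome XVI disome. These counts are descriptions with no test, and a member counted as without an element may carry a variant of it.

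**Figure D3:**
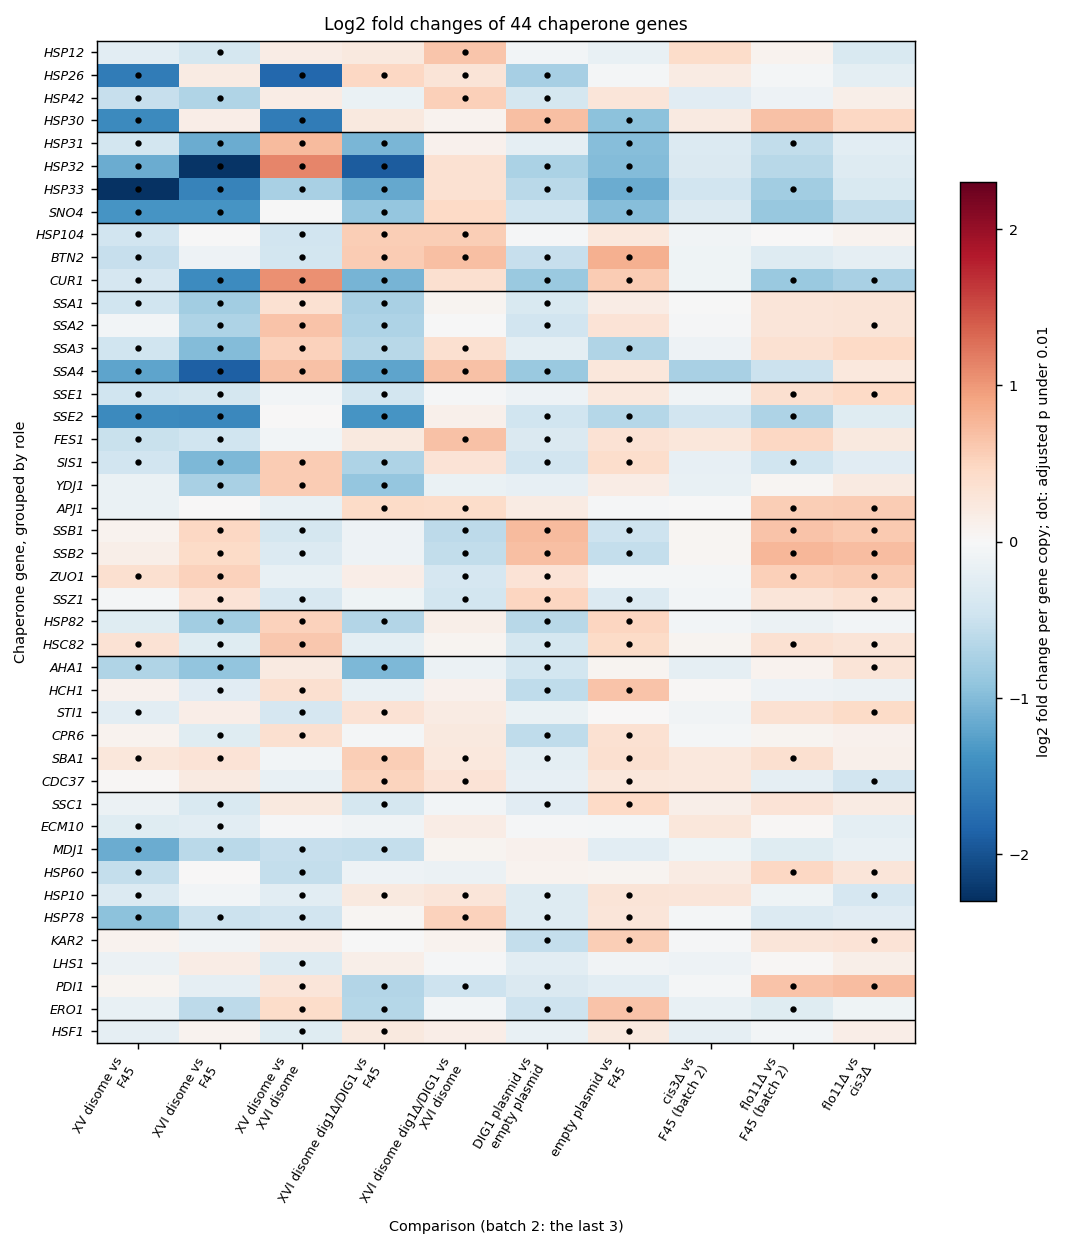
Log2 fold changes per gene copy (colour) of the 44 members (rows, in blocks by role) in the 10 comparisons (columns), with a dot where the adjusted p was under 0.01. The *HSP31* block is blue in 4 comparisons against F45 of the first batch, and the block of *SSB1*, *SSB2*, *ZUO1* and *SSZ1* is red for the chromosome XVI disome, the *DIG1* plasmid and *flo11*Δ.

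Set against each other, the disomes differed in 30 members, 15 higher and 15 lower in the chromosome XV disome, where 21.8% of ORFs were higher and 21.6% lower. The largest fall was that of *HSP26* (−1.80 ± 0.0795, adjusted p = 2.29e-16), before *HSP30* (−1.61). The largest rise per copy was that of *HSP32* (1.12 ± 0.13, adjusted p = 4.72e-08), which without copy number adjustment was 0.12 and not called. *HSP31* (0.73) and *HSC82* (0.62), on neither doubled chromosome, were higher in the chromosome XV disome as well. *CUR1* (1.05) and *HSP82* (0.54) were higher per copy, but without copy number adjustment *CUR1* had 0.05 and was not called, and *HSP82* had −0.46 and was called lower. *HSP82* was at 777–1032 CPM in the chromosome XV disome, against 1123–1313 CPM in the chromosome XVI disome. Of the mitochondrial members, *HSP60* (−0.56), *MDJ1* (−0.53) and *HSP78* (−0.44) were lower in it. *HSP10* was called lower per copy (−0.24) and higher without copy number adjustment (0.76), at 1078–1192 CPM in the chromosome XV disome, against 630.2–731 CPM in the chromosome XVI disome, and kept its call in 13 of 19 alternatives. *STI1*, lower per copy (−0.38), also turned (0.62). *HSF1* was lower in it too (−0.27 ± 0.0691, adjusted p = 0.00158), a call that was lost without chromosome XV disome replicate 4.

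The hemizygous strain asks what 1 of the *DIG1* copies contributes. Relative to the full chromosome XVI disome, 13 members rose and 5 fell in it, where 12% of ORFs were higher and 13.5% lower. The sorting factor *BTN2* rose most. It was at 1557, 1609, 1633 and 1606 CPM in the hemizygous strain and at 1017, 1123, 952 and 884 CPM in the chromosome XVI disome, with 1089, 1013, 1136 and 1060.0 CPM in F45. The hemizygous libraries lay above both other groups (0.69 ± 0.0977, adjusted p = 7.03e-06 against the disome). *SSA4* (0.67), *FES1* (0.67), *HSP12* (0.63), *HSP104* (0.57), *HSP42* (0.54) and *HSP78* (0.54) also rose relative to the disome, and the other 6 were *APJ1*, *SSA3*, *HSP10*, *CDC37*, *HSP26* and *SBA1*, at 0.42 to 0.24. The 4 ribosome-associated members all fell, and *SSB1* fell most. *SSB1* was at 861, 833, 926 and 934 CPM in the hemizygous strain and at 1366, 1236, 1387 and 1388 CPM in the chromosome XVI disome, with no overlap (−0.60 ± 0.0708, adjusted p = 7.26e-07). The fifth was *PDI1* (−0.47).

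Against F45, the hemizygous strain had 9 members higher and 19 lower, where 28.7% of ORFs were higher and 29.3% lower. Without copy number adjustment, 11 members were higher and 16 lower, with the share of ORFs at this setting not counted. *SSE1* (0.58) and *HSP82* (0.32) were then called higher, and *CUR1* (−0.07) was not called. Per copy, *BTN2* had the largest rise (0.58 ± 0.0976, adjusted p = 1.21e-05), and *HSP104* (0.57), *SBA1* (0.56), *CDC37* (0.51), *HSP26* (0.48), *APJ1* (0.44), *STI1* (0.33), *HSP10* (0.22) and *HSF1* (0.23) rose as well. The call of *HSP10* was kept in 10 of 19 alternatives and that of *HSF1* in 12 of 19, and both were lost under other scalings and without single libraries, F45 replicate 3 among them. The *HSP31* family and the 4 cytosolic Hsp70 genes all fell, with *SSA4* at −1.21. *HSP32* had the largest fall per copy (−1.91 ± 0.118, adjusted p = 1.82e-13), and −0.91 without copy number adjustment. It was at 18.9, 18.5, 16.2 and 14.8 CPM in the hemizygous strain, against 32.8, 32.4, 30.9 and 33.1 CPM in F45. The ribosome-associated members were not called (−0.12 to 0.15). *HSP104*, *BTN2* and *HSP26* thus had their highest mean levels of the first batch in the hemizygous or empty plasmid strains and not in the full disomes.

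In euploid cells, most of the members were lower with the *DIG1* plasmid than with the empty plasmid. Of the 44, 5 rose and 24 fell, where 16% of ORFs were higher and 16.4% lower, with a median of −0.30 against −0.02 for all tested ORFs. All 4 ribosome-associated members rose, and *SSB1* had the largest rise. *SSB1* was at 1177, 1136, 1166 and 1119 CPM with the *DIG1* plasmid and at 795, 712, 639.5 and 627 CPM with the empty plasmid (0.73 ± 0.0709, adjusted p = 4.31e-09), so the groups did not overlap. The fifth was *HSP30* (0.69 ± 0.12, adjusted p = 4.12e-05). The largest fall was that of *CUR1*, at 48.1, 63.3, 55.5 and 41.4 CPM with the *DIG1* plasmid and 102, 96.7, 109 and 70.2 CPM with the empty plasmid (−0.86 ± 0.114, adjusted p = 8.02e-07). *SSA4* (−0.85), *HSP26* (−0.77), *HSP32* (−0.73), *HSP82* (−0.64) and *KAR2* (−0.55) also fell. Of the 18 Hsf1-dependent members, 13 fell and 0 rose. The *DIG1* plasmid strain was not tested against F45 without a plasmid. Of the falls named here, *CUR1*, *HSP82* and *KAR2* overlapped with F45 in CPM, and *SSA4*, *HSP26* and *HSP32* lay below F45. *HSP30* was at 16776–19946 CPM with the *DIG1* plasmid, still below the 20823–24528 CPM of F45.

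The empty plasmid strain also differed from F45 in these genes. Against F45 without a plasmid, 16 members rose and 10 fell, where 24.3% of ORFs were higher and 23.5% lower. *BTN2* rose most, at 1889, 1898, 2158 and 1613 CPM with the empty plasmid, against 1089, 1013, 1136 and 1060.0 CPM in F45 (0.81 ± 0.0978, adjusted p = 1.05e-07). *HCH1* (0.66), *ERO1* (0.65), *CUR1* (0.59), *KAR2* (0.56), *HSP82* (0.50), *SSC1* (0.45) and *HSC82* (0.44) rose too, and of the 18 Hsf1-dependent members 9 rose and 0 fell. The 4 *HSP31* family genes fell together, and *HSP33* fell most, at 19, 18.8, 20.2 and 17.4 CPM with the empty plasmid, against 44.5, 43.7, 38.1 and 39.8 CPM in F45 (−1.13 ± 0.123, adjusted p = 1.83e-08). *HSP30* (−0.94), *SSA3* (−0.69), *SSE2* (−0.66), *SSB1* (−0.48), *SSB2* (−0.54) and *SSZ1* (−0.32) were the others that fell. For *BTN2*, the *DIG1* plasmid strain had 1309 ± 156 CPM and the empty plasmid strain 1889.5 ± 223 CPM, with 1074 ± 51.6 CPM in F45 (SD, n = 4 each).

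**Figure D4:**
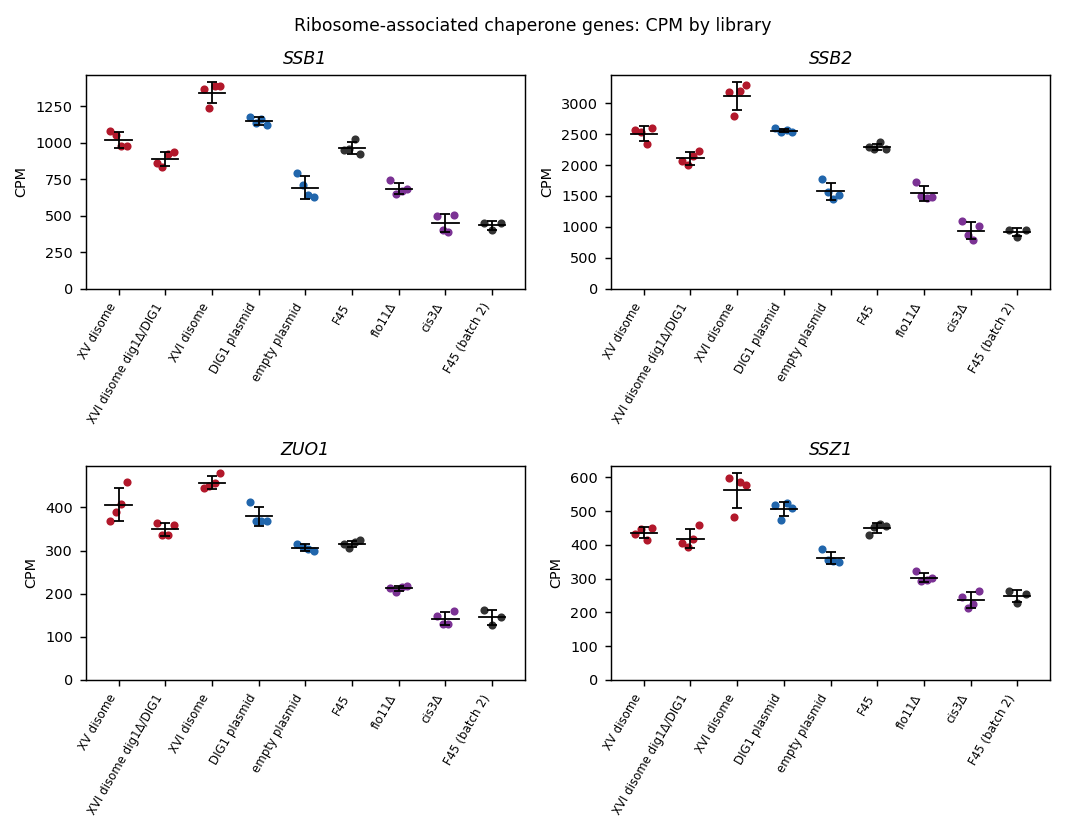
CPM (y axis, linear, from 0) of the ribosome-associated chaperone genes in the 6 groups of the first batch and the 3 of the second (x axis). Points are single libraries, the line is the mean and the bar the SD (n = 4, and n = 3 for F45 of the second batch). *SSB1* lies at 1236–1388 CPM in the chromosome XVI disome and at 652–742 CPM in *flo11*Δ colonies, above F45 of the same batch in both cases, and levels are not comparable between batches.

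Colonies of *flo11*Δ and *cis3*Δ strains are smooth without an extra chromosome or extra *DIG1*, and the second batch asks whether chaperone transcripts differ in them. In *flo11*Δ colonies, 9 members rose and 6 fell relative to F45, where 14.8% of ORFs were higher and 15.5% lower. *SSB2* rose most, at 1725, 1498, 1463 and 1490.0 CPM in *flo11*Δ colonies, against 954, 834 and 942 CPM in F45 (0.76 ± 0.116, adjusted p = 0.000214). *SSB1* (0.66) and *ZUO1* (0.55) rose too, as did *PDI1* (0.66), *APJ1* (0.57), *HSP60* (0.48), *SSE1* (0.36), *HSC82* (0.36) and *SBA1* (0.36). *CUR1* had the largest fall among those called, at 8.3, 10.3, 13.1 and 10.6 CPM in *flo11*Δ colonies, against 18.8, 21.3 and 17.5 CPM in F45 (−0.85 ± 0.196, adjusted p = 0.00367). The other falls were those of *HSP31* (−0.56), *HSP33* (−0.79), *SSE2* (−0.71), *SIS1* (−0.46) and *ERO1* (−0.28). Leaving out *flo11*Δ replicate 1, 2 or 4 or F45 replicate 2 left 3 members called lower. With the first *flo11*Δ isolate alone, a check chosen after the data were seen, 4 rose and 0 fell, and with the second alone *SIS1* was the only fall.

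In *cis3*Δ colonies, no member passed the threshold in edgeR's quasi-likelihood test, where 0.185% of ORFs were higher and 0.236% lower. At an unadjusted p under 0.05 there were 14 members, 6 higher and 8 lower, and DESeq2 called 2 higher and 1 lower. The shares of ORFs at these settings were not counted, so these numbers have no background beside them. The lowest adjusted p was that of *SSA4*, at 345, 366, 291 and 221 CPM in *cis3*Δ colonies, against 433, 579 and 524 CPM in F45 (−0.75 ± 0.153, adjusted p = 0.0258). The *cis3*Δ libraries were spread for some members, with *HSP30* at 17493–33223 CPM, against 20554–24789 CPM in F45, and an adjusted p above the threshold does not show that the levels were alike.

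Between the deletions, 13 members were higher and 3 lower in *flo11*Δ than in *cis3*Δ colonies, where 15.4% of ORFs were higher and 15% lower. All 4 ribosome-associated members were higher, and *SSB2* had the largest rise, at 1725, 1498, 1463 and 1490.0 CPM in *flo11*Δ colonies, against 1089, 869.7, 786 and 1016 CPM in *cis3*Δ colonies (0.72 ± 0.106, adjusted p = 0.000216). *PDI1* (0.70), *APJ1* (0.58), *SSE1* (0.45) and *STI1* (0.44) were higher too, and *SSA2*, *KAR2*, *AHA1*, *HSC82* and *HSP60* by 0.28 to 0.31. *CUR1* had the largest fall, at 8.3, 10.3, 13.1 and 10.6 CPM in *flo11*Δ colonies, against 12.8, 15.4, 25.4 and 17.2 CPM in *cis3*Δ colonies (−0.75 ± 0.187, adjusted p = 0.00624), with overlapping libraries. *CDC37* (−0.43) and *HSP10* (−0.38) were the others. Without *cis3*Δ replicate 3, 7 were higher, and without *flo11*Δ replicate 1 or 3, 8 were. The 3 lower became 6 without *cis3*Δ replicate 4 and 1 without *flo11*Δ replicate 1 or 2.

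Over the 9 groups, the members summed to 3.03% ± 0.183 of ORF counts in the chromosome XV disome, 4.92% ± 0.238 in the chromosome XVI disome, 5.72% ± 0.207 in the hemizygous strain, 4.64% ± 0.157 with the *DIG1* plasmid, 4.62% ± 0.187 with the empty plasmid and 4.86% ± 0.123 in F45 of the first batch (± SD). In the second batch the sums were 6.64% ± 0.198 in *flo11*Δ, 6.34% ± 0.72 in *cis3*Δ and 5.89% ± 0.399 in F45 colonies. The chromosome XV disome thus had the lowest sum, and *HSP30* made up 48.2–53.3% of the sum in *flo11*Δ colonies. Each of the 44 members was called in at least 1 of the 10 comparisons, and 7 were lower in no comparison of the first batch against F45. The matching shares of all ORFs were not counted, so these numbers do not set the members apart from other genes.

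Lists of related genes outside the 44 were counted in the same way, beside 28% of ORFs higher and 29.4% lower in the chromosome XV disome and 26.7% higher and 25% lower in the chromosome XVI disome. The 6 genes of prefoldin, which hands nascent actin and tubulin to the cytosolic chaperonin, all rose in the chromosome XV disome (median 0.83, with *PAC10* at 1.13), the chromosome XVI disome (0.53), the hemizygous strain (0.78) and the empty plasmid strain (0.60), all against the same F45 libraries. Of the 8 chaperonin subunit genes, 2 rose in the chromosome XV disome and 3 in the chromosome XVI disome, and none fell, with medians of −0.01 and 0.11. Of 6 further Hsp90 cochaperones, 4 rose and 0 fell in the chromosome XV disome, and 3 rose and 1 fell in the chromosome XVI disome, with *CNS1* the largest rise in both. Of 13 other ER folding and quality control genes, there were 5 higher and 3 lower in each disome. Of 16 general stress genes that are not chaperones, 4 rose and 6 fell in the chromosome XV disome (median −0.11), and 1 rose and 12 fell in the chromosome XVI disome (−0.69). Of 5 stress regulator genes, 1 rose and 3 fell in the chromosome XV disome, and 0 rose and 3 fell in the chromosome XVI disome. *MSN4* rose in the chromosome XV disome (0.33) and fell in the chromosome XVI disome (−0.34), at 461–571 CPM and 286–343 CPM, against 387–446 CPM in F45. *RPN4*, which drives proteasome genes (−0.48 and −0.85), and, per copy, the coactivator gene *MBF1* on chromosome XV (−0.45 and −0.81) fell in both. Without copy number adjustment, *MBF1* was at 964–1146 CPM in the chromosome XV disome, above its 678–813 CPM in F45. It is among the 3 regulator genes counted as lower there. *YAP1*, a regulator of the oxidative stress response, fell in the chromosome XV disome (−0.50) and had −0.15 in the chromosome XVI disome, and *MSN2* was called in neither.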

How the data were processed

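RNA from whole colonies was extracted with hot phenol and made into stranded poly(A) libraries. The authors used Bowtie2 (version 2.1.0) to align read pairs to the R64 reference extended with F45 genes and counted them per feature and strand with featureCounts (version 1.4.0), and set no minimum mapping quality. What was deposited is a table of raw counts for each batch. A deposited column of feature lengths, another kind of value, served for levels per kilobase. Columns name a strain and not a replicate, so libraries were mapped to groups only.

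The tools were edgeR 4.0.16 and limma 3.58.1 under R 4.3.3, with 1 fit per batch and 1 coefficient per group. TMM factors and library sizes came from nuclear ORFs, in the first batch only those that lie on neither doubled chromosome, an offset divided counts of a doubled chromosome by 2, and filterByExpr kept 5923 nuclear ORFs among 8097 features (second batch, 5942 of 8059). Two-sided tests of each contrast used glmQLFTest with a prior count of 0.125 and Benjamini–Hochberg adjustment over all tested features, at a threshold of 0.01. Standard errors were taken as the size of a log2 fold change over the square root of F. The fit was tested on simulated data. No pair of libraries agreed within sampling noise. The numbers in the column names were checked for pairing. Deviations correlated over 0.1 in every pair only between the chromosome XV disome and F45 (0.177–0.226). The reported fits have no block, so their standard errors and p-values are unpaired. A replicate block was fitted only as an alternative, with 3 members higher and 26 lower in the chromosome XV disome.

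All 44 members are described. Values per library are given for members called and over 2-fold in a disome against F45 and for the largest rise and fall among those called in each comparison; further genes were singled out after their values were seen. The rule for the members uses gene names alone, but it and the lists were drawn up with earlier results of these data known. Alternatives were the likelihood ratio test, DESeq2 1.42.0, other scalings and filters, no copy number adjustment, a fit to the groups compared, a replicate block, adjustment over ORFs alone, an adjusted p under 0.05, and leaving out each library. Sequences were searched with Python 3.11.15, coding sequences aligned with Biopython 1.88, and figures drawn with matplotlib 3.10.9.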

Additional observations from a re-analysis of the deposited data

Results flagged for a closer look

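The *DIG1* plasmid and the second chromosomal *DIG1* copy went with different changes in 10 members. This rests on a test of the difference itself in edgeR at an adjusted p under 0.01, computed after the main results had been seen. The share of ORFs past this test was not counted, so the number of members has no background beside it. The first effect is that of the *DIG1* plasmid relative to the empty plasmid, and the second that of the chromosome XVI disome relative to its hemizygous derivative. In this order, 4 members had a higher effect on the plasmid, *HSP30* (0.69 and −0.07, difference 0.76), *APJ1* (0.20 and −0.42, difference 0.62), *HSP12* (−0.05 and −0.63, difference 0.58) and *HSP104* (−0.03 and −0.57, difference 0.55). The other 6 had a lower one, *PDI1* (−0.33 and 0.47, difference −0.80), *AHA1* (−0.42 and 0.13, difference −0.55), *HSP82* (−0.64 and −0.13, difference −0.52), *HCH1* (−0.58 and −0.10, difference −0.49), *HSP26* (−0.77 and −0.29, difference −0.48) and *KAR2* (−0.55 and −0.08, difference −0.47). *PDI1* fell with the plasmid and was higher in the disome than in the hemizygous strain, both past the threshold. The *DIG1* doses were unequal, with 291–317 CPM on the plasmid, against 67.9–74.1 CPM with the empty plasmid, and 125–149 CPM in the disome, against 54.7–65.3 CPM in the hemizygous strain. Dose, plasmid and karyotype cannot be told apart here.

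In 3 of 120 checks of a named member within a group of 4 libraries, 1 library stood apart from the others by Dixon's criterion, which chance alone gives in about 1 of 20 groups. *ZUO1* had 412 CPM in 1 library of the *DIG1* plasmid strain, where the others lay at 367–369 CPM. *SSB1* had 1236 CPM in 1 library of the chromosome XVI disome, where the others lay at 1366–1388 CPM. *SSB2* had 1725 CPM in 1 *flo11*Δ library, where the others lay at 1463–1498 CPM. Groups of 3 were not checked.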

How the results depend on the processing

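The shares of ORFs under the alternatives below were not counted. In the chromosome XV disome against F45, 3 members higher became 1 with scaling factors applied to total counts and 5 without copy number adjustment. With the former, *HSC82* and *SBA1* lost their call. The fall of the members in both disomes kept within 1.5 times its count under all alternatives, from 20 to 26 members without 1 library in turn in the chromosome XV disome and from 22 to 26 in the chromosome XVI disome. Of the called members, 20 of 27 in the chromosome XV disome and 25 of 31 in the chromosome XVI disome kept their call under every alternative at the same threshold, other than those chosen after the data were seen. In the chromosome XV disome, calls of *CUR1* (14 of 19 alternatives), *SIS1* (17 of 19) and *ECM10* (17 of 19) were lost without single libraries, and in the chromosome XVI disome those of *HSC82* (15 of 19), *HCH1* (15 of 19), *CPR6* (15 of 19) and *ECM10* (13 of 19). *STI1*, *HSP10*, *SSE1* and *HSP82*, called lower per copy in the disome that doubles them, were above F45 there without copy number adjustment. *HSP32* was higher in the chromosome XV than in the chromosome XVI disome by 1.12, or 0.12 and not called without that adjustment. Without the *HSP31* family, the 10 members lower with the empty plasmid were 6.

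The second batch depended more on the processing. For *cis3*Δ, the count of 0 higher became 2 with DESeq2 and 1 at an adjusted p under 0.05, and the count of 0 lower became 1 with the likelihood ratio test, 1 with DESeq2 and 1 at 0.05. For *flo11*Δ, the 9 members higher became 16 with DESeq2, 14 with only the groups compared in the fit, 17 at 0.05 and 4 with the first isolate alone, and the 6 lower became 10, 10, 11 and 0 in the same order and 1 with the second isolate. Without 1 library in turn, the *flo11*Δ counts ranged from 6 to 8 higher and from 3 to 7 lower. Against *cis3*Δ, the 13 higher ranged from 7 to 11 without 1 library and were 7 with the first *cis3*Δ isolate alone. The 3 lower ranged from 1 to 6 without 1 library, were 6 at 0.05 and 1 without the members on chromosomes XV and XVI. The cause of these changes was not tested beyond the smaller number of libraries where libraries were left out.

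With the number in the column names as a replicate block, the *flo11*Δ count of members higher became 15, and the chromosome XV disome had 3 members higher and 26 lower. The replicate block moved no other count by over 1.5 times. The numbers deviated together in every pair only between the chromosome XV disome and F45. The isolate checks, and those without the *HSP31* family or the members on chromosomes XV and XVI, were chosen after the data were seen. In F45 of the first batch, the lowest mean level per kilobase, that of *SNO4*, rested on 123 counts per library.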
